A study of Homo sapiens with 13 samples.

Results

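The end state of a BMP4 differentiation was described here from 1 library of human pluripotent stem cells collected at 42 h, set against 2 libraries collected at 0 h. These are 3 of the 13 libraries of the series. The cells were RUES2, a human embryonic stem cell line, in an engineered form that carries a GFP::SMAD4 fusion as a reporter of BMP signaling. They were grown in mTeSR1, a medium that maintains pluripotency, with ROCK inhibitor, and the labels name 100 ng/mL BMP4 together with 5 µM IWP2, a blocker of Wnt secretion. The labels name this treatment for the 0 h libraries too, which were read as cells collected when it began. RNA was measured in bulk after depletion of ribosomal RNA, so a lower level can mean fewer cells of a type or less RNA per cell, and the data cannot separate these. No untreated library was collected at 42 h, so culture time and treatment cannot be told apart. The question was what kind of cell the 42 h transcriptome describes: its most abundant transcripts, the lineage markers it holds and lacks, and the functional classes it gained and lost. Genes were read through 41 lists, 13 of lineages, 16 of functions and 12 of gene families.

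The amnion is the thin epithelium that encloses the embryo in its fluid-filled cavity, and in primates its first cells arise from the pluripotent epiblast around the time of implantation. BMP ligands act through SMAD1/5/9 with SMAD4 and turn on transcription factors of the GATA, TFAP2, MSX and HAND families, which amnion shares in part with trophoblast, surface ectoderm and extraembryonic mesoderm. No single gene in these families identifies amnion on its own, which is why markers of the other lineages are given beside those of amnion.

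The 3 libraries held 37957385 and 71333471 expected counts at 0 h and 61196400 at 42 h. The 0 h totals were also the lowest and the highest of the 7 time-series libraries. Levels are given as CPM, counts scaled to a common library total, and 3 counts correspond to 0.079, 0.0421 and 0.049 CPM in these libraries. The 0 h libraries differed from each other in composition. Transcripts of the mitochondrial genome made up 7.6% and 4.29% of counts in them and 2.01% at 42 h, and the signal recognition particle RNA RN7SL1 stood at 3905 and 14260 CPM against 13790. Nothing in the labels says that the 0 h libraries came from separate cultures, so their spread may be technical.

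Of 61541 human genes, 15533 passed a minimum of 1 CPM as the mean of the 0 h and 42 h levels and were tested with edgeR's quasi-likelihood test, Benjamini-Hochberg adjusted over all of them at 0.05. At 42 h 3085 genes were higher (19.9% of those tested) and 2932 were lower (18.9%), and the median log2 change over all tested genes was -0.03. With library totals in place of TMM factors the split was 2476 higher and 3773 lower, and the median was -0.22. The 42 h state was 1 library, so the test took the spread of the 0 h pair and assumed that 42 h varied like it. By a fold threshold alone, 1 SD of the log2 ratio over 13651 genes, which was 1.55, 1022 genes were higher (7.49%) and 1181 lower (8.65%), a balance that turned to 1187 higher and 976 lower with TMM-scaled CPM. Of the 2203 genes 2192 were also called by edgeR in the same direction. The ratio of the 0 h libraries to each other passed that threshold for 47 genes.

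**Figure D1:**
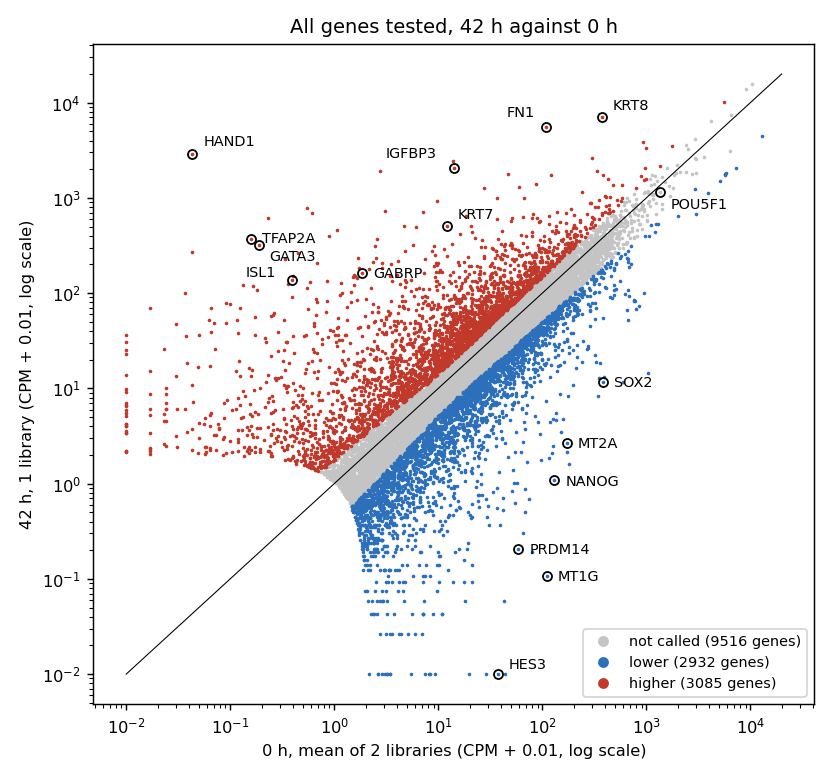
Each point is 1 tested gene, with the mean CPM of the 2 libraries at 0 h on the x axis and the CPM of the library at 42 h on the y axis, both plus 0.01 on log scales. The 3085 genes called higher, the 2932 called lower and the genes not called are coloured apart, and named genes are ringed. HAND1 and MT1G lie far off the diagonal on opposite sides.

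The 6 markers that define the state as amnion-like were all measured at 42 h, at 137 to 2919 CPM, and each was called higher. Of the 6, 4 were below 1 CPM at 0 h and passed the minimum through 42 h, so the call adds little to their levels. HAND1, a basic helix-loop-helix factor of amnion, extraembryonic mesoderm and heart, was at 0.0527 and 0.014 CPM at 0 h, which is 2 counts and 1 count. It was at 1036 CPM at 28 h and 2919 CPM at 42 h, or 0.292% of the library. The ratio of 42 h to 0 h counts per library total was 106000, with a 95% counting interval of 36400 to 516000. No 0 h value came near the 42 h value. HAND1 lies at chr5:154474972-154478227 on the minus strand of GRCh38, and its promoter is shown because HAND1 had the largest fitted rise and genes of AP-2 factors were higher too. The 300 bases around its start in RefSeq (GRCh38.p14, chr5:154478178-154478477, minus strand) hold 2 matches to GCCNNNGGC, the palindromic letters bound by AP-2 proteins, printed in capitals.
HAND1 promoter: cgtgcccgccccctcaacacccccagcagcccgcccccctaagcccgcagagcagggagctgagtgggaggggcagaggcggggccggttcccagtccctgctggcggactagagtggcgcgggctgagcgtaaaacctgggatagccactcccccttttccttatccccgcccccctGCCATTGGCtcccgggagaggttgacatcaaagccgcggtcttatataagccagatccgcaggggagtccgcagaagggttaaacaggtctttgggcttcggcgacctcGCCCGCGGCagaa
The letters were searched on both strands and read the same on either. They occurred in 23.2% of all 34960 promoters of 27195 genes, and in 34.4%, 29.2% and 30.2% of promoters of genes called higher, called lower and not called, whose mean GC contents were 64.7%, 62.8% and 63.6%. The windows found for the other markers held fewer, with 0 in those of GABRP, ISL1 and TFAP2A and 0 or 1 in the 6 of GATA3. A match describes the letters and does not show binding.

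KRT7, a keratin of simple epithelia (chr12:52232520-52252186), was at 9.93 and 14.3 CPM at 0 h, rose to 99.7 at 28 h and reached 503 at 42 h. The change was 5.55 ± 0.35 on the log2 scale (fitted value ± SE, n = 2 and 1). TFAP2A, an AP-2 factor of surface ectoderm and amnion (chr6:10393186-10419659), went from 0.158 and 0.14 CPM to 45.7 at 4 h and 367 at 42 h, a log2 change of 11.45 ± 0.47. GATA3, a zinc finger factor of amnion and trophoblast (chr10:8045378-8075198), was at 0.158 and 0.196 CPM at 0 h, 45.6 at 4 h and 322 at 42 h, a log2 change of 10.96 ± 0.46. Both factors had already reached most of their 42 h level by 28 h, at 348 and 296 CPM. GABRP, a subunit of a GABA-gated chloride channel (chr5:170763350-170814047), had not. It was at 1.95 and 1.74 CPM at 0 h, 4.23 at 28 h and 164 at 42 h, a log2 change of 6.67 ± 0.36. ISL1, a LIM homeodomain factor (chr5:51383448-51394730), went from 0.263 and 0.505 CPM to 74.2 at 28 h and 137 at 42 h, a log2 change of 8.57 ± 0.40. The 6 adjusted p-values from edgeR ran from 2.42e-153 to 5.22e-53. Such values rest on a spread shared across genes and on 1 library at 42 h. GATA3-AS1 overlaps GATA3 on the other strand, and whether counting used strand is not given in the sources used here, so their reads cannot be told apart.

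**Figure D2:**
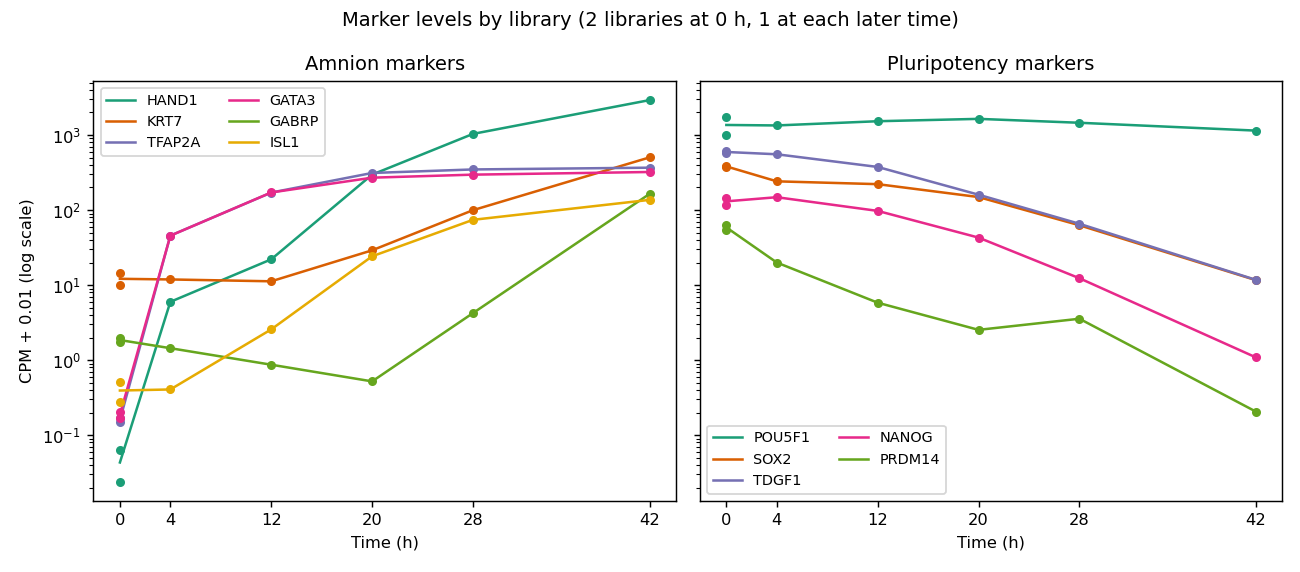
CPM plus 0.01 on a log scale against hours for the 6 amnion markers (left) and 5 pluripotency markers (right), where points are libraries (2 at 0 h and 1 at each later time) and lines join the 0 h mean to the later values. GABRP stays at 4.23 CPM at 28 h and reaches 164 at 42 h, and POU5F1 is at or above its lower 0 h value of 1003 CPM throughout while SOX2, TDGF1, NANOG and PRDM14 fall.

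A further 25 genes of amnion and of the early BMP response were listed, and 24 were tested and called higher, with a median log2 change of 6.59. Of these 24, 15 were below 1 CPM at 0 h and passed the minimum through 42 h alone, so their direction was fixed by the filter. IGFBP3, a secreted binding protein for insulin-like growth factors, was at 12.5 and 15.7 CPM at 0 h, 49.7 at 28 h and 2085 at 42 h. Most of its rise fell in the last interval. MSX2, a homeobox target of BMP, went from 0.474 and 0.589 to 789 CPM, GATA2 from 1.16 and 0.939 to 462, and the T-box factor TBX3 from 0.501 and 0.715 to 702. WNT6, a Wnt ligand, was at 2 counts and 1 count at 0 h and at 273 CPM at 42 h, a ratio of 9950 (95% counting interval 3400 to 48200). VTCN1, an immune inhibitory ligand of the B7 family, reached only 10.1 CPM from 0.184 and 0.182. MUC16, a cell surface mucin, was the listed gene below the minimum, at 1.21 and 0.687 CPM at 0 h and 0.098 at 42 h.

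Of 18 BMP target and feedback genes, 17 were tested, 16 were higher and 0 lower, with a median log2 change of 4.62 against -0.03 over all tested genes. Of the 17, 6 were below 1 CPM at 0 h and passed the minimum through 42 h alone, which fixed their direction. ID1, an inhibitor of basic helix-loop-helix factors and a direct BMP target, was at 56.4 and 63.9 CPM at 0 h, reached 942 by 4 h and stood at 1370.2 and 1304 at 28 and 42 h. SMAD6, an inhibitory SMAD, went from 6.59 and 7.78 to 708 CPM, BAMBI, a decoy receptor, from 9.06 and 10.3 to 925, and NOG, a secreted BMP antagonist, from 0.395 and 0.393 to 149.8. These all stood above both 0 h libraries by far more than those differed. GREM1, another antagonist, was transient, at 27.9 CPM at 4 h and 1.14 at 42 h, too low to be tested. Of 12 Wnt target genes 8 were tested, 2 were higher (25%) and 2 lower (25%), beside 19.9% and 18.9% over all genes. Both higher genes, RNF43 and NOTUM, were below 1 CPM at 0 h and passed the minimum through 42 h alone, which fixed their direction. AXIN2, a feedback inhibitor of Wnt signaling, fell from 65.4 and 62.6 to 8.37 CPM, a log2 change of -2.75 ± 0.38 (edgeR adjusted p = 3.4e-12). RNF43, a ubiquitin ligase that removes Wnt receptors, rose from 0.79 and 0.561 to 38.5 CPM. NOTUM, a secreted Wnt deacylase, was at 0.0527 and 0.168 CPM and then 19.2, and its call was lost when either 0 h library was left out. Every test that left out a 0 h library was a spline in hours over the remaining 6 libraries, so the model changed too.

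Pluripotency genes did not fall together. Of 28 genes of primed pluripotency 27 were tested, 23 were lower and 0 higher, with a median log2 change of -2.82, and 9 of the 28 were below 1 CPM at 42 h. Of the 27, 8 passed the minimum through 0 h alone, so the filter fixed their direction. PRDM14, a PR-domain regulator of pluripotency, went from 53.7 and 63.9 to 0.196 CPM, a log2 change of -8.03 ± 0.54. NANOG, a homeobox factor, went from 146 and 116 to 1.08 CPM (-6.73 ± 0.49), TDGF1, the Nodal co-receptor, from 613 and 576 to 11.7 (-5.48 ± 0.47), and SOX2 from 389 and 375 to 11.6 (-4.85 ± 0.45). ZIC2, FOXD3, OTX2 and USP44 each ended between 0.49 and 1.6 CPM from 0 h levels above 50. HES3, a basic helix-loop-helix repressor, was at 34.6 and 40.9 CPM at 0 h and 0 counts at 42 h, which is at least 789-fold lower against 3 counts in that library. The 4 that were not called included POU5F1, the POU factor whose product is OCT4. It was at 1003 and 1721 CPM at 0 h and 1145 at 42 h, inside the range of the 0 h pair, with a log2 change of -0.07 ± 0.37 (edgeR adjusted p = 0.909). LIN28A, an RNA-binding protein of undifferentiated cells, was at 3017 and 2966 CPM and then 1806 (-0.54 ± 0.39, edgeR adjusted p = 0.285). ZFP42 was at 167 and 190.1 CPM and then 221, and LIN28B at 231 and 190.2 and then 148. Without 0 h replicate 2 LIN28A was called lower and ZFP42 higher. At 1236 FPKM, the deposited level normalized for gene length and depth, POU5F1 ranked 56 of 19922 protein-coding genes in the 42 h library. POU5F1 and NANOG have processed copies that share reads with them. The 7 annotated POU5F1 copies summed to 3.82, 5.34 and 3.69 CPM in the 3 libraries, and the 11 NANOG copies to 0.36 CPM at 42 h.

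Of 14 genes of naive pluripotency, 6 were tested, 5 were higher (83.3%) and 0 lower, beside 19.9% and 18.9% over all genes. Of the 14, 7 were below 1 CPM at 42 h and 4 had 3 counts or fewer there. ARGFX, at 1.21 and 0.547 CPM at 0 h, had 0 counts at 42 h and was not tested. With no CPM filter 6 were higher and 2 lower. The 5 were TBX3, TFCP2L1, KLF5, KLF4 and SUSD2. TBX3 was also on the amnion list and passed the minimum through 42 h alone, which fixed its direction. TFCP2L1, a grainyhead-related factor, was at 6.98 and 5.23 CPM at 0 h, 101 at 28 h and 39.1 at 42 h. KLF4 and KLF5, zinc finger factors also used by epithelia, reached 12.3 and 14.8 CPM.

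Genes of trophoblast, which shares many factors with amnion, were higher in part. Of 28 listed genes 10 were tested, 5 of them from below 1 CPM at 0 h, and 6 were higher and 1 lower. At 42 h 18 of the 28 were below 1 CPM, and 9 had 3 counts or fewer in each of the 3 libraries. TP63, a p53-family factor of cytotrophoblast and of basal epidermis, was at 0.132 and 0.0981 CPM at 0 h, 3.69 at 28 h and 70.2 at 42 h, a log2 change of 9.47 ± 0.43. VGLL1, a TEAD cofactor, was at 0 counts in both 0 h libraries and at 6.47 CPM at 42 h, at least 236-fold higher. CYP11A1, the first enzyme of steroid synthesis, went from 0.948 and 1.28 to 15.1 CPM. The genes of hormone-secreting and fused trophoblast stayed low. CGA, the common alpha chain of the glycoprotein hormones, had 0 counts at 0 h and 0.163 CPM at 42 h, which is 10 counts. CGB5, a beta chain of chorionic gonadotropin, had 0 counts at 42 h, and GCM1, the regulator of fusion, was at 0.359 CPM. ELF5 had 0 counts in all 3 libraries, which allows up to 0.049 CPM at 42 h. HLA-G, a class I gene of extravillous trophoblast, rose from 0.79 and 1.11 to 2.81 CPM (log2 change 1.73 ± 0.42), and the copies of class I genes make its reads uncertain. SDC1, a surface proteoglycan of syncytiotrophoblast, fell from 62.5 and 72.5 to 8.51 CPM.

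Markers of primitive streak, endoderm and neural ectoderm were mostly low at 42 h. TBXT, the factor of the primitive streak, was at 0.0263 and 0.294 CPM at 0 h and 0.18 at 42 h, EOMES at 0.211 and 0.308 and then 0.294, and MIXL1 at 1.42 and 0.799 and then 0.931. None of these lay outside the range of the 0 h pair. Of 14 streak genes 11 were below 1 CPM at 42 h, 5 were tested, and 2 were higher (TBX6 and WNT3, at 6.16 and 4.8 CPM) and 2 lower (FOXH1 and FGF8). Of the 5, 2 passed the minimum through 0 h alone, FGF8 among them, which fixed their direction. Of 12 endoderm genes 10 were below 1 CPM and 3 were tested, with 2 higher and 1 lower. Of the 3, 2 passed the minimum through 42 h alone and 1 through 0 h alone, so the filter fixed their direction. SOX17 was at 0.079 and 0.0561 CPM at 0 h, reached 1.49 at 28 h and stood at 0.441 at 42 h, and FOXA2 fell from 3.19 and 2.92 to 0.114. GATA4 and GATA6, which were higher, reached 2.25 and 3.63 CPM, but the GATA4 call was lost without 0 h replicate 2. Of 18 neural genes 14 were below 1 CPM and 6 were tested, with 1 higher (FEZF2) and 4 lower. FEZF2 passed the minimum through 42 h alone and 2 of the 6 through 0 h alone, which fixed their direction. Over all genes 19.9% were higher and 18.9% lower. PAX6 ended at 0.0817 CPM from 0.869 and 0.911, and SOX1 was at 0.184 and 0.28 CPM and then 0.212. NES, an intermediate filament gene of progenitors, was at 306 and 353 CPM and then 354 and was not called.

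Of 18 genes of later and extraembryonic mesoderm, 12 were tested, 9 were higher and 1 lower. Of the 12, 7 were below 1 CPM at 0 h and passed through 42 h alone, so the filter fixed their direction. MEIS1, a homeobox cofactor of HOX proteins, went from 0.263 and 0.238 to 62 CPM (log2 change 8.14 ± 0.39), the cardiac homeobox gene NKX2-5 from 0.079 and 0.028 to 17.3, TBX20 from 0.211 and 0.0701 to 16.3, and WT1 from 0 and 0.028 to 7.04. HAND2, the paralog of HAND1, was at 0 counts at 0 h and 2.12 CPM at 42 h, at least 77.4-fold higher. Of 13 endothelial and blood genes 8 were below 1 CPM at 42 h, with PECAM1 and HBE1 at 0 counts and CDH5 at 0.294 CPM. Of the 5 tested 2 were higher and 2 lower. RUNX1, a factor of blood formation, went from 0.738 and 0.631 to 15.3 CPM and VWF, a clotting protein of endothelium, from 0.896 and 0.841 to 2.53, and both passed the minimum through 42 h alone. KDR, a receptor for VEGF, fell from 68.2 and 60.4 to 6.06 CPM. The germ cell list held 11 genes, of which 3 were tested and higher. TFAP2C, an AP-2 factor shared with amnion and trophoblast, rose from 10.2 and 10.4 to 176 CPM and KIT from 20.8 and 16.1 to 63.6, while NANOS3 stood at 1.21 CPM and DDX4 at 0.0163.

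Surface ectoderm was the non-amnion list with the highest summed level at 42 h after the pluripotency list, at 1493 CPM against 606.5 and 582.6 at 0 h. Of 16 listed, 11 were tested, 8 were higher and 0 lower, with a median log2 change of 1.28. GRHL3, a grainyhead factor of epithelial barriers, went from 2.05 and 1.12 CPM to 42.6 at 4 h and 153 at 42 h, GRHL1 from 2.08 and 1.91 to 86.5, and GRHL2 from 42.5 and 44.6 to 286. CDH3, P-cadherin, and EPCAM, an epithelial adhesion molecule, rose from already high levels to 379 and 299 CPM (log2 changes 1.23 ± 0.33 and 1.28 ± 0.33). Among the genes of stratified epidermis KRT5, KRT14, KRT1 and DSG3 were at 0 counts at 42 h, while others were present, with TP63 as given above and KRT16 and KRT17 below 10 CPM. In the crest and placode list of 12 genes, 8 were tested, 3 were higher and 2 lower. SOX10 was at 3.11 and 3 CPM and then 1.5 (not called), and PAX3 at 0.0654 CPM at 42 h.

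**Figure D3:**
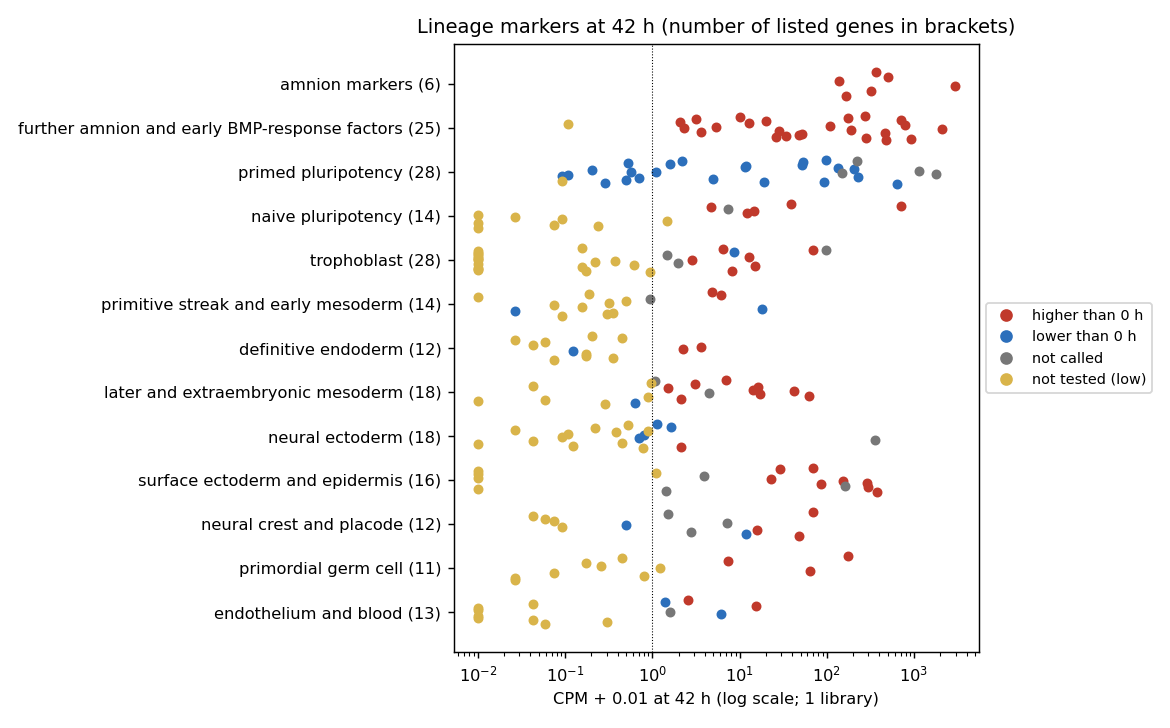
Each point is 1 listed gene, with its CPM plus 0.01 in the 42 h library on a log scale and 1 row per lineage list, the number of genes listed in brackets. Colour gives the call against 0 h, with untested genes apart, and the dotted line marks 1 CPM. All 6 amnion markers lie right of it, and 18 of 28 trophoblast, 11 of 14 streak and 14 of 18 neural genes lie left of it.

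By FPKM, the scale that compares genes per length, the 20 most abundant protein-coding genes at 42 h were 7 of the mitochondrial genome, 6 ribosomal protein genes, 2 keratins and 5 others. The first was MT-ATP8 at 42100 FPKM, a very short gene. Of the 20, 13 were also in the top 20 at 0 h. KRT8, a type II keratin of simple epithelia, was at 186 and 318 FPKM at 0 h and at 4624 at 42 h, and moved from rank 360 to rank 5. KRT18, its type I partner, was at 221 and 307 FPKM and then 2305, and moved from rank 343 to rank 19. EEF1A1, a translation elongation factor, had 2917 and 4424 FPKM and then 6623, and ACTB 4214 and 4719 and then 6506. GAPDH was at 2902 and 3198 FPKM at 0 h and 2574 at 42 h and was not called. HAND1, at 2028 FPKM, ranked 24, above ID1 at rank 28, KRT19 at 38, IGFBP3 at 85 and FN1 at 98. A transcription factor with 3 counts in all at 0 h thus stood among the 24 most abundant protein-coding transcripts. EPAS1, the hypoxia-inducible factor HIF-2 alpha, was chosen after its values were seen. It ranked 76 with 999 FPKM, from 1.67 and 1.3 at 0 h.

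**Figure D4:**
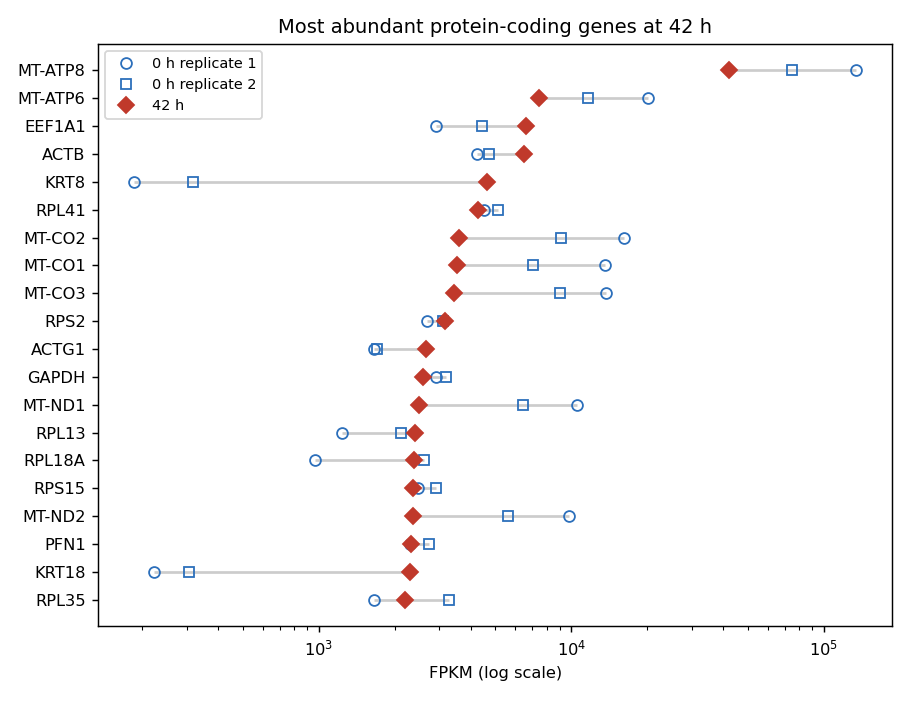
FPKM on a log scale for the most abundant protein-coding genes at 42 h, with open symbols for the 2 libraries at 0 h and filled diamonds for the library at 42 h. KRT8 and KRT18 stand 1 order of magnitude or nearly so right of their 0 h values, and the mitochondrial genes stand left of theirs.

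Of the functional groups, simple epithelial keratins gained the most in summed CPM. The 6 simple epithelial keratins summed to 624.5 and 987.6 CPM at 0 h and to 11900 at 42 h, and the 4 that were tested were each higher. KRT8 was at 277 and 473 CPM at 0 h, 2997 at 28 h and 7033 at 42 h, a log2 change of 4.41 ± 0.39. KRT18 went from 249 and 346 to 2646 CPM and KRT19 from 88.5 and 154 to 1719. The keratin gain was narrow. Of 55 keratin genes 41 had 3 counts or fewer in each of the 3 libraries. Of the 55, 8 were tested and 7 were higher (87.5%), beside 19.9% over all genes. Beside KRT7, KRT8, KRT18 and KRT19 only KRT80, KRT16 and KRT17 were called, at 38, 9.2 and 5.31 CPM. These last 3 were below 1 CPM at 0 h and passed the minimum through 42 h alone, so the filter fixed their direction. KRT16 was at 0 counts at 0 h, so it was at least 335-fold higher at 42 h. KRT8 and KRT18 overlap at their starts on opposite strands and have many copies. The 51 KRT8 copies summed to 89.8 CPM at 42 h, of which KRT8P3 made up 70.5, and the 67 KRT18 copies to 4.38.

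Of 13 desmosome genes, which anchor keratins at the membrane, 10 were tested, 6 were higher and 0 lower, with a median log2 change of 1.58. JUP, plakoglobin, went from 232 and 245 to 1147 CPM (2.45 ± 0.34), and PKP2, a plakophilin, from 37.5 and 34.2 to 278 (3.14 ± 0.32). DSG2, a desmosomal cadherin already present at 0 h, was at 259 and 203 CPM and then 199 (-0.02 ± 0.34, edgeR adjusted p = 0.963). Of 20 tight junction genes 18 were tested, 10 were higher and 1 lower, with a median of 0.95. CLDN4 rose from 11.4 and 15.5 to 331 CPM (4.80 ± 0.34), and CLDN6 from 464 and 570.4 to 962. CLDN10 was at 9.3 and 9.24 CPM at 0 h, 773 at 28 h and 249 at 42 h, so its level had already passed a higher value.

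Of 28 contractile genes 27 were tested, 15 were higher and 1 lower, with a median log2 change of 0.87. ACTC1, cardiac alpha-actin, was at 38.4 and 35.6 CPM at 0 h, 930.4 at 28 h and 996 at 42 h, though actin genes are close copies that can share reads. TAGLN2, a transgelin, went from 39.5 and 59.8 to 574. Of 31 matrix genes 28 were tested, 15 were higher and 6 lower, with a median of 0.83. FN1, fibronectin, was at 123 and 95 CPM at 0 h, 2264 at 28 h and 5617 at 42 h, or 0.562% of the library, a log2 change of 5.88 ± 0.40. LAMB1, a laminin chain, rose from 43.1 and 39.5 to 259 CPM, and SPARC from 191 and 209 to 658. Within type IV collagen, the network protein of basement membranes, the pairs of chains moved apart. COL4A5 and COL4A6 rose from 34.1 and 31.6 to 126 CPM and from 19.8 and 22.6 to 98 CPM, with log2 changes of 2.12 ± 0.31 and 2.40 ± 0.31. COL4A1 and COL4A2, the chains of most basement membranes, fell from 101 and 114 to 41.8 CPM and from 124 and 148 to 60.4 CPM, with log2 changes of -1.18 ± 0.35 and -0.99 ± 0.35. VCAN, a large proteoglycan, fell from 952 and 633 to 67.4 CPM (-3.37 ± 0.43). Of 27 integrins 17 were tested, 5 were higher (29.4%) and 4 lower (23.5%), beside 19.9% and 18.9% over all genes. With limma 4 integrins were higher and 5 lower. ITGB1 was at 238 and 224 CPM and then 449.

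**Figure D5:**
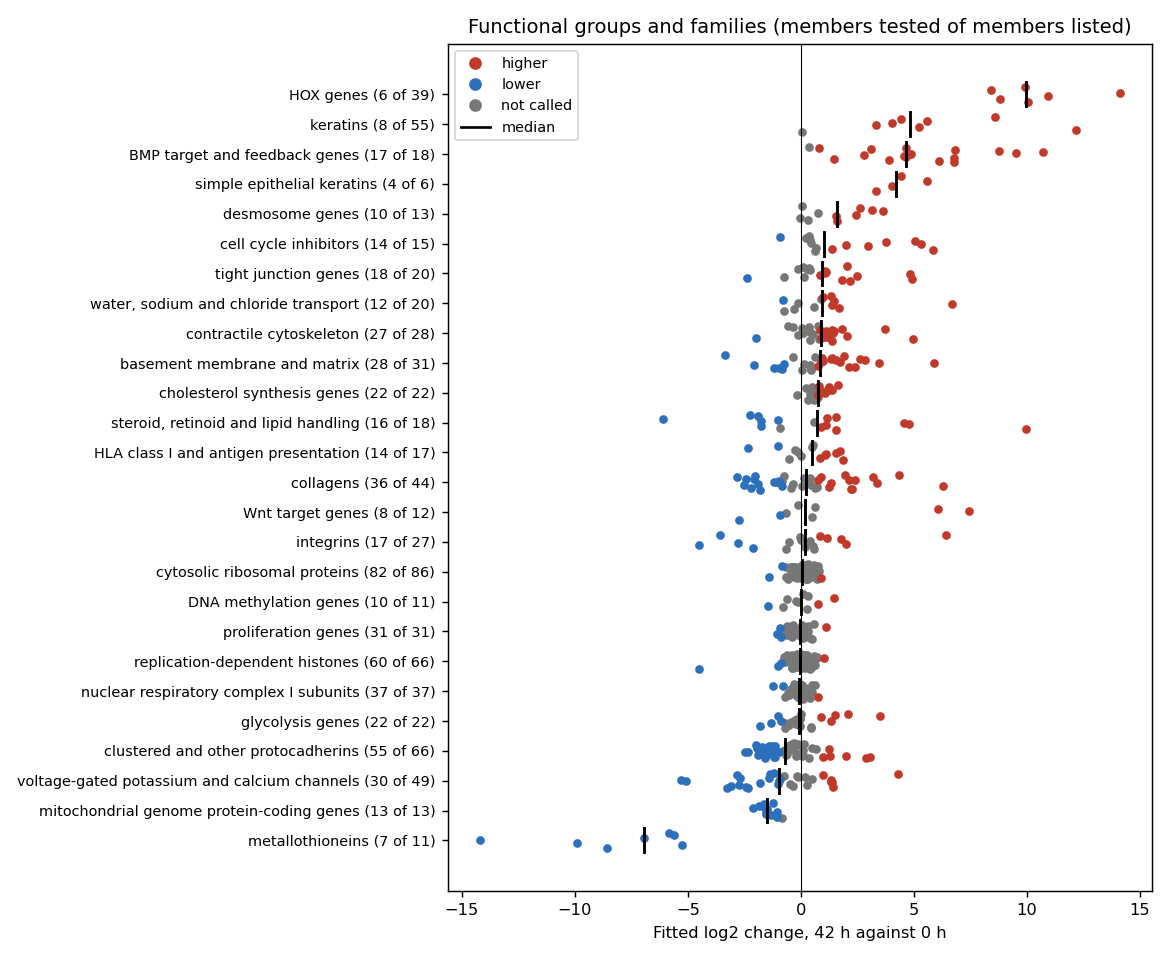
Fitted log2 changes of the tested members of each functional group or gene family, 42 h against 0 h, with black bars at the medians and the numbers tested and listed in brackets. The medians run from -6.96 for metallothioneins to 9.97 for HOX genes, and proliferation genes, at -0.04, and ribosomal protein genes, at 0.04, centre on 0. The HOX median is 9.36 with genes at 0 counts set to their lower bounds. The minimum of 1 CPM fixed the direction of all 6 tested HOX genes and of 5 of the 7 tested metallothioneins.

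Metallothioneins had the lowest median change of the functional groups. These small cysteine-rich proteins bind zinc and copper, and their genes lie in 1 cluster on chromosome 16. Of 11 listed 7 were tested and 7 were lower, with a median log2 change of -6.96, and their sum went from 554.8 and 505.1 to 5.2 CPM. Of the 7, 5 were below 1 CPM at 42 h and passed the minimum through 0 h alone, which fixed their direction. MT2A was at 172 and 171 CPM at 0 h, had reached 93.3 by 4 h and 13.2 by 28 h, and ended at 2.66, a log2 change of -5.82 ± 0.46. MT1X went from 112 and 82 to 1.75 CPM and MT1G from 107 and 114 to 0.098, which is 6 counts. MT1H was at 53.1 and 33.7 CPM at 0 h and at 0 counts at 42 h, at least 826-fold lower. The 0 h libraries lay close together beside these falls. The genes are near-identical in sequence, so reads may be split between them. Their promoters in RefSeq (GRCh38.p14, plus strand) are shown for the 3 tested members found there because such genes are controlled through metal response elements, whose core letters TGCACNC or TGCGCNC, on either strand, are in capitals. The windows are chr16:56608334-56608633 for MT2A, chr16:56669564-56669863 for MT1H and chr16:56682220-56682519 for MT1X.
MT2A promoter: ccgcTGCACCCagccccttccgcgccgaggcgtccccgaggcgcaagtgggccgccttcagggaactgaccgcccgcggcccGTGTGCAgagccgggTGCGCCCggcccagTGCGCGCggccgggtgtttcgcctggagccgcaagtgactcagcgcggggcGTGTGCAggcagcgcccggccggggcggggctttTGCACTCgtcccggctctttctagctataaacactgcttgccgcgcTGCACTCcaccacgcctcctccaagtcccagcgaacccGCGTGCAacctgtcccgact
MT1H promoter: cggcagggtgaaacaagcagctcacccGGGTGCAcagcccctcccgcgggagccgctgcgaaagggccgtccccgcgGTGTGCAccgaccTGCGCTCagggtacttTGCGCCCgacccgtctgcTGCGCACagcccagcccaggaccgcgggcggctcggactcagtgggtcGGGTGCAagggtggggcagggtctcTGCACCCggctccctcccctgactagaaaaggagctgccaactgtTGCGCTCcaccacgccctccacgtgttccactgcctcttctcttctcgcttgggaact
MT1X promoter: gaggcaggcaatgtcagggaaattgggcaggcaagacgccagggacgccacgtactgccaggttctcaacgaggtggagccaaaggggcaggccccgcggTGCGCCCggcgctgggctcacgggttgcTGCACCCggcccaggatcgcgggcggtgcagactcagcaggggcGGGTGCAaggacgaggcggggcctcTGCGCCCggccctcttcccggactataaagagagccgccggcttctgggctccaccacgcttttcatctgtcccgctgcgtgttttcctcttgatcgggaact
MT2A and MT1H held 8 matches each and MT1X 4. Of all 34960 promoters 29.6% held at least 1 match and 0.601% held at least 4. Among promoters of genes called higher, called lower and not called, 37.3%, 36.9% and 37.5% held at least 1. At least 4 were held by 0.846%, 0.842% and 0.733% of them. The GC contents of the MT2A, MT1H and MT1X windows were 72%, 68.3% and 67%, against a mean of 57.6% over all promoters. Zinc content was not measured, and what lowered the class was not tested.

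Few proliferation genes passed the test. Of 31 proliferation genes all were tested, 1 was higher and 3 lower, with a median log2 change of -0.04, and without 0 h replicate 2 these counts were 4 and 7. CCNB1, the mitotic cyclin, was at 133 and 150.0 CPM and then 142, and CDK1 at 51.3 and 49 and then 53.3, and neither was called. The 3 lower genes were CCNE2, MCM6 and BUB1, whose log2 changes were between -0.87 and -1.07. Of 15 cell cycle inhibitors 14 were tested, 7 were higher (50%) and 1 lower (7.14%), with a median of 1.01. Over all genes 19.9% were higher and 18.9% lower. Of the 14, 2 were below 1 CPM at 0 h and passed the minimum through 42 h alone, which fixed their direction. BTG2, an antiproliferative factor, went from 2.34 and 2.17 to 112 CPM (5.83 ± 0.35). CDKN1C, the CDK inhibitor p57, was at 12 and 19.8 CPM at 0 h, 21.1 at 28 h and 108 at 42 h (2.95 ± 0.31). GADD45A and GADD45B, stress-response genes, rose to 49 and 57.9 CPM.

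Of 13 protein-coding genes of the mitochondrial genome 12 were lower, with a median log2 change of -1.49, but 1 was lower with limma on FPKM. MT-CO1, a subunit of cytochrome oxidase, was at 17193 and 8940.4 CPM at 0 h and 4514 at 42 h (-1.34 ± 0.43), and the pair at 0 h differed by more than the second of them did from 42 h. Nuclear subunits of respiratory complex I did not follow, with 1 of 37 higher, 2 lower and a median of -0.07, though 7 were higher without 0 h replicate 2. Of 22 glycolysis genes 5 were higher and 4 lower, shares near the 19.9% and 18.9% of all genes, and on library totals 4 were higher and 6 lower. SLC2A3, a glucose transporter, rose from 474 and 382 to 1579 CPM and SLC2A1 from 219 and 240.2 to 579, while HK2, a hexokinase, fell from 173 and 142 to 54.4. Of 22 cholesterol synthesis genes 10 were higher and 0 lower, with a median of 0.74, and 6 were higher on library totals and 18 without 0 h replicate 2. TM7SF2, a sterol reductase, went from 99.7 and 109 to 288 CPM (1.65 ± 0.32). Of 86 cytosolic ribosomal protein genes 82 were tested, 1 was higher and 2 lower. The ribosomal count of higher genes moved with the model and with the 0 h library. A spline over 7 libraries gave 8, and over 6 libraries it gave 23 without 0 h replicate 2 and 3 without 0 h replicate 1.

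Genes of retinoid handling changed in both directions. In the list of 18 genes of steroid, retinoid and lipid handling 16 were tested, 8 were higher and 6 lower. Of the 16, 3 passed the minimum through 42 h alone and 2 through 0 h alone. The balance was not stable, with 7 and 7 on library totals, 6 and 6 with DESeq2's test, and 4 and 6 with limma on log2(FPKM + 0.1). ALDH1A2, which makes retinoic acid, was at 0.079 and 0.168 CPM at 0 h, 11.4 at 28 h and 121 at 42 h (9.97 ± 0.44). CYP26A1, which breaks it down and is itself a retinoic acid target, was at 4.64 and 4.96 CPM at 0 h, 2.13 at 28 h and 117 at 42 h (4.79 ± 0.33). LRAT, which stores retinol as esters, fell from 45 and 38.1 to 0.523 CPM (-6.12 ± 0.46), and STRA6, a retinol transporter, fell from 8.46 and 8.71 to 1.59. Of 20 genes of water, sodium and chloride transport 12 were tested, 6 were higher (50%) and 1 lower (8.33%). Of the 20, 9 were below 1 CPM at 42 h. The water channel genes AQP3 and AQP11 were not called, with log2 changes of -0.30 and -0.77. CFTR, a chloride channel gene, went from 1.55 and 1.36 to 0.392 CPM and was not tested. SLC12A2, a sodium, potassium and chloride cotransporter, rose from 40.8 and 35.4 to 92.5 CPM (1.47 ± 0.31). Of 17 class I antigen presentation genes 14 were tested, 6 were higher and 2 lower. B2M, the class I light chain, rose from 19.4 and 20 to 61.9 CPM, HLA-E from 16.3 and 25.6 to 53.5, and HLA-C from 151 and 198 to 334. Among 11 DNA methylation genes 10 were tested, 2 were higher (20%) and 1 lower (10%), or 3 lower without 0 h replicate 2. Over all genes 19.9% were higher and 18.9% lower. The lower gene, DNMT3B, the de novo methyltransferase of pluripotent cells, went from 2009 and 1999.5 to 638 CPM (-1.46 ± 0.40).

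Few members of the HOX family passed the minimum. Of 39 HOX genes 6 were tested and higher, and 18 had 3 counts or fewer in all 3 libraries. Each of the 6 was below 1 CPM at 0 h and passed the minimum through 42 h alone, so the filter fixed their direction. Their median log2 change was 9.97, or 9.36 with the 2 genes at 0 counts set to their lower bounds. HOXC13 was the highest at 48.6 CPM, from 0.079 and 0.0421. HOXB6 was at 0 counts at 0 h, 0.711 CPM at 28 h and 36.3 at 42 h, at least 1320-fold higher, and HOXB2 went from 0.0527 and 0.028 to 36 CPM. Of 66 protocadherins 55 were tested, 6 were higher and 25 lower, with a median of -0.71, and PCDH1 fell from 395 and 415 to 116 CPM. Of the 55, 13 passed the minimum through 0 h alone, which fixed their direction. Of 49 voltage-gated potassium and calcium channels 30 were tested, 6 were higher and 16 lower, with a median of -0.96, and without 0 h replicate 1 the higher count was 3. Of the 30, 8 passed the minimum through 0 h alone and 1 through 42 h alone, which fixed their direction. KCND2 fell from 20.9 and 17.5 to 0.49 CPM. Of 509 zinc finger genes with a ZNF symbol 456 were tested, and the median was -0.32. Of the 456, 38 were higher (8.33%) and 111 lower (24.3%), beside 19.9% and 18.9% over all genes. The minimum was passed through 0 h alone by 13 of them and through 42 h alone by 2, which fixed their direction. ZNF483 fell from 401 and 251 to 18.7 CPM. Of 375 solute carriers 249 were tested, 72 were higher (28.9%) and 43 lower (17.3%), beside 19.9% and 18.9% over all genes, with a median of 0.27. SLC7A5, a transporter of large neutral amino acids, was the most abundant named at 969 and 998 CPM and then 3351. Histone genes of the replication-dependent class gave 1 higher and 3 lower of 60 tested, which became 17 and 7 without 0 h replicate 2.

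Among the 15 largest rises, ranked by fitted change with at least 10 CPM as the mean, those not yet described included DIO3, the thyroid hormone-inactivating deiodinase of placenta and fetus, which went from 0.132 and 0.308 to 85 CPM at 28 h and 613 at 42 h (11.49 ± 0.47). DIO3OS overlaps it on the other strand, and their reads cannot be told apart. TCIM and BARX2, a regulator of Wnt signaling and a homeobox gene, had 0 counts at 0 h and 30.9 and 23 CPM at 42 h, at least 1130-fold and 836-fold higher. ANKRD1, a target of YAP, went from 2 counts in all to 101 CPM, a ratio of 5540 (95% counting interval 1530 to 45800). CDX2, a caudal homeobox factor of trophectoderm and hindgut, had 1 count at 0 h and 25.9 CPM at 42 h, a ratio of 2830 (508 to 112000). The order among genes with so few counts at 0 h depends on how the fit treats them. Among the 15 largest falls, those outside the metallothioneins and pluripotency genes were THBS2, a matrix thrombospondin, from 68 and 61.3 to 0.294 CPM (-7.58 ± 0.52), SORBS2, GLB1L3 and LRAT.

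The time course placed these levels in order. Of the 3085 higher genes 2244 (72.7%) had their highest level of the 7 libraries at 42 h, and 521 (16.9%) were at least double their 28 h CPM. Of the 2932 lower genes 2790 (95.2%) were at their lowest at 42 h, and 1300 (44.3%) were at no more than 50% of 28 h. The genes were chosen for being high or low at 42 h, which largely fixes that this library is their extreme, and the last interval was not tested. GABRP, IGFBP3, KRT7, ALDH1A2, CYP26A1, CDKN1C and the HOXB genes were among those with most of their gain after 28 h. GATA3, TFAP2A, ID1, SMAD6, ACTC1 and BTG2 stood at 28 h close to their 42 h levels.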

How the data were processed

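RNA of a 7-library time series of GFP::SMAD4 RUES2 cells was sequenced as total RNA with ribosomal RNA depleted. The 6 dose-response libraries were not used. Per the study's methods and its processing notes, the authors used STAR 2.7.8a for alignment against GRCh38 and RSEM 1.3.3 for counting, and replicates were not pooled. The deposited counts are expected counts, whole numbers not scaled for depth, and the deposited FPKM values were normalized by the authors for length and depth. The annotation release and the use of strand are not given in the sources used here. Coordinates and biotypes came from GENCODE release 44, which held 61369 of the 61541 human genes in the table, and 5 reporter or recombinase features were counted in library totals but not tested.

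Groups followed the labels. Expected counts were tested with edgeR 4.0.16 (quasi-likelihood, TMM, Benjamini-Hochberg at 0.05) in R 4.3.3 on genes with at least 1 CPM as the mean of both times, with 2 libraries at 0 h and 1 at 42 h. That left 1 residual degree of freedom, and edgeR estimated an infinite prior, so every gene took the trended spread. CPM was on library totals, log2 changes were on TMM-scaled counts, and FPKM served to compare levels between genes. Genes at 0 counts were bounded at 3 counts, over both libraries at 0 h or in the 42 h library. Ratios from 1 to 3 counts and shares have exact or Wilson 95% intervals, which cover counting error only. Fold thresholds used 0.01 CPM added and genes whose time points averaged 2.5 CPM or more. Alternatives were other scalings and filters, DESeq2 1.42.0, limma 3.58.1 on log2(FPKM + 0.1) and log2(FPKM + 1), and a spline in hours over 7 libraries. Tests with a 0 h library left out used the same spline over 6 libraries, so they changed the model as well. Fold thresholds were also computed with each 0 h library left out. The edgeR and DESeq2 steps were tested on simulated data. Promoters were RefSeq windows of 300 bases, with 34960 promoters searched.

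Named genes were lineage markers, the 20 most abundant protein-coding genes at 42 h and 10 at 0 h by FPKM, the 15 largest rises and falls with at least 10 CPM, and of each list the 3 highest at 42 h and the 3 with the largest change. Other names were chosen after their values were seen. The libraries, gene lists and rules were chosen with earlier results of these data known. Sex-linked Y genes and XIST were left out.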

Additional observations from a re-analysis of the deposited data

How the results depend on the processing

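The test at 42 h rested on 1 library and on a spread shared by all genes, so gene-specific variation at 42 h was not measured. On expected counts the higher and lower calls were 3163 and 2797 with DESeq2's size factors, 2476 and 3773 on library totals, 2604 and 2450 at 2.5 CPM, 2627 and 2402 with DESeq2's test, and 4382 and 4204 with no CPM filter. A spline over 7 libraries gave 3680 and 3268, leaving out mitochondrial genes gave 3209 and 2775, and protein-coding genes alone gave 2756 and 2456. Limma on FPKM gave 1861 and 1969 higher with 0.1 and 1 added, and 2602 and 2606 lower. With the spline over 6 libraries, without a 0 h replicate, higher calls ran from 3034 to 4110 and lower calls from 2772 to 3807. When a 0 h replicate was left out, the fold-threshold counts, which use no spline, ran from 1030 to 1074 higher and 1126 to 1219 lower. They were 1187 and 976 with TMM-scaled CPM, which turned the balance, 1202 and 1403 with 1 CPM added, and 1168 and 1614 at a 1 CPM filter. Lists with more higher than lower calls were 27, from 25 to 28 without a 0 h replicate, 22 on library totals, 23 with limma and 29 with no CPM filter. The 20 most abundant genes by CPM shared 9 with those by FPKM.

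Of 150 named genes with a fit 138 were called, and 127 of them in the same direction under each alternative in which they were fitted. Of the 138, 115 had a fit under every alternative, and 108 of these were called the same way in each. No called gene changed sign, and the cause of the sign changes in genes near 0 was not tested. DSG2 was at 0.104 with no CPM filter, 0.018 with the spline, 0.156 without 0 h replicate 1, 0.010 without mitochondrial genes, and 0.000 with DESeq2's size factors and test. GAPDH was at 0.097, 0.010 and 0.007 with no filter, the spline and no mitochondrial genes, and 0.105 without 0 h replicate 2. MIXL1 was at 0.092, 0.006 and 0.001 under the same settings and 0.263 without 0 h replicate 1. POU5F1 was at 0.054 with no filter, 0.363 without 0 h replicate 2 and 0.065 with limma. With limma CCNB1 was at -0.002 and CDK1 at -0.006. Calls were lost in at least 1 setting by BUB1, CCNE2, CLDN6, EEF1A1, GATA4, HLA-C, MCM6, MT-ATP8, MT-CO1, NOTUM and VWF, among them EEF1A1 on library totals and CCNE2 and MT-ATP8 without 0 h replicate 1. Calls gained without 0 h replicate 2 were ACTB higher and SOX10 lower, beside LIN28A and ZFP42, and LIN28A also passed with the spline. No paired analysis was possible because the 0 h and 42 h libraries share fewer than 2 replicate numbers.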

Other observations

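The end state also differed in long non-coding RNAs, which the lists did not cover and whose names were chosen after their values were seen. Of 1407 tested long non-coding genes 14.1% were higher and 29.8% lower at 42 h, against 20.7% and 17.5% of 13478 protein-coding genes and 19.9% and 18.9% of all genes tested. Several abundant at 0 h were lower. ESRG went from 1371 and 700.3 CPM at 0 h to 14.6, a log2 change of -5.96 ± 0.50. MIR302CHG, the host transcript of the miR-302 cluster, went from 167 and 103 to 4.69 CPM, and MIAT from 172 and 128 to 3.46. LINC00678 stood at 41.5 and 44.1 CPM at 0 h and at 3 counts at 42 h, a ratio of 0.00113 with a 95% counting interval of 0.000234 to 0.00332.

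Transcripts gained included H19, an imprinted RNA of fetal and placental tissue, at 5.88 and 4.99 CPM at 0 h, 9.04 at 28 h and 105 at 42 h. Its neighbor IGF2, a growth factor gene, went from 3.06 and 2.1 to 37.7 CPM. GATA2-AS1 reached 69.1 CPM, and GATA3-AS1 reached 25.4 CPM from 0 counts at 0 h, at least 924-fold higher, with the limit on strand given for GATA3. PCAT14 was transient, at 1.11 and 0.589 CPM at 0 h, 754 at 28 h and 134 at 42 h. Among protein-coding genes outside the lists, AHNAK, a large scaffold protein, went from 14.1 and 13.5 to 2416 CPM, and CEBPA, a leucine zipper factor, from 3.19 and 6.18 to 512.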
